A study of Mus musculus with 60 samples.

Results

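The 10 genes described here carry signals of interleukin 6 (IL6) or of other cytokines of its family into the mouse hepatocyte, or are switched on by them. They are the receptor subunits Il6ra, Il6st, Osmr and Lifr, the kinases Jak1 and Jak2, the transcription factor Stat3, and the feedback and target genes Socs3, Pim1 and Bcl3. They were taken by name, with earlier results of these data known, from 19456 gene symbols listed in a table of cultured cells and a table of liver after partial hepatectomy (PHX). All 10 were listed in both tables and passed the filter on low values, under which 12328 of 19355 symbols were tested in the cell table and 11114 of 17473 in the liver table.

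All samples are labelled as wild type of strain C57BL/6, 3 to a group. The cell table held 33 samples in 11 groups, which were hepatocytes, IL6-induced hepatic progenitor cells (IL6-iHPCs) of the first culture (P0) at days 3 and 14 (D3 and D14), passaged IL6-iHPCs of 4 lines, and the IL6-induced mature hepatocytes (IL6-iMHs) made from each of these lines. The lines were mouse-1 at passage 10 (P10), the same mouse at P35, mouse-2 at P10 and clone-1 at P20, which per the study was grown from a single hepatocyte. The study grew its clones from hepatocytes of Albumin-Cre; R26R-tdTomato mice, in which Cre driven by the albumin promoter turns on tdTomato, so clone-1 may carry these alleles although its label gives wild type. IL6-iHPCs were grown in medium with 30 ng/ml IL6, 20 ng/ml EGF and 20 ng/ml HGF, and with dexamethasone. IL6-iMHs had spent 7 days in a maturation medium listed without IL6, EGF or HGF. It held 20 ng/ml oncostatin M, a cytokine of the same family as IL6, and dexamethasone at a higher level. The media thus differed in several agents at once, whose parts cannot be told apart, and every group of the cell table other than hepatocytes had met IL6, so that no culture without it was compared here. The 3 samples of a culture group are technical repeats, and p-values in the cell table cover technical spread only. The liver table held 18 samples in 6 groups, namely normal liver and liver at 6 h, 24 h, 3 days, 7 days and 14 days after PHX (PHX-6h, PHX-24h, PHX-D3, PHX-D7 and PHX-D14), with mice of 8 to 10 weeks. Nothing in the sources used here says that the 3 samples of a liver group are separate mice, so p-values there measure only the spread between these samples.

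IL6 binds its receptor IL6R, the product of Il6ra, and the pair joins gp130, the product of Il6st, which is the signal-passing subunit that the whole cytokine family shares. Oncostatin M and leukemia inhibitory factor reach gp130 through partners of their own, the products of Osmr and Lifr. Janus kinases bound to these receptors, among them JAK1 and JAK2, then phosphorylate STAT3, which enters the nucleus and switches on acute-phase genes in the hepatocyte as well as Socs3, whose product blocks the same receptor and kinases, Pim1, a kinase linked to survival and growth, and Bcl3, a partner of NF-κB. In the liver the pathway is known for the acute-phase response and for the first hours of regeneration. It acts largely through phosphorylation of proteins, which mRNA does not measure.

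STAT3 binds DNA at short palindromes, and the 9-letter word TTCNNNGAA, which reads the same on both strands, was looked for in the RefSeq promoters of these genes (GRCm38.p6, 250 bases before to 50 bases after each start). The word stood in a promoter of 1 of the 10 genes, Socs3, in promoters of 10 of 61 other genes of the pathway list that have a RefSeq promoter in the table used, and in 2726 of all 32851 promoters (8.3%). The promoter of Socs3, the feedback inhibitor which rose most of the 10 in liver at 6 h, lies at chr11:117969317-117969616 on the minus strand. It is printed 5′ to 3′ with the word in capitals, 154 bases before the RefSeq start.
Socs3: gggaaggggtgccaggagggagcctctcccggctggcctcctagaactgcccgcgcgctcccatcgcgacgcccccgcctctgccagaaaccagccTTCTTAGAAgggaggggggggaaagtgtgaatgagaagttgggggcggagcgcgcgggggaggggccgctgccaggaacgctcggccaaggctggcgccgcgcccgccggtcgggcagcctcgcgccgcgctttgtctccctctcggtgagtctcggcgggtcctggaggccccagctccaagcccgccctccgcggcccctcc
For comparison, windows of 29 bases around the same word are given for 3 acute-phase genes that rose in the liver at 6 h, Fga, Fgb and Itih4, and for Irf1, a STAT-regulated transcription factor that fell there.
Fga, chr3:83025909-83025937, plus strand: aggcccccatTTCCTGGAAtgtagattcc
Fgb, chr3:83050007-83050035, minus strand: gactcaatgaTTCGAGGAAccccctgtgt
Itih4, chr14:30886415-30886443, plus strand: aaacctgcatTTCCGAGAActtgcaccag
Irf1, chr11:53769914-53769942, plus strand: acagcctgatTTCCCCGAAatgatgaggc
A match describes letters and is no evidence of binding, and the absence of a match in these 300 bases says nothing about the factor.

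In both tables a value is FPKM, mapped fragments divided by transcript length in kilobases and by the size of the library, which can be compared between genes. Differences are given on the log2(FPKM + 1) scale as log2 fold change ± standard error, a scale that understates the change of genes under about 1 FPKM. A gene rose or fell where its limma p-value, after Benjamini-Hochberg adjustment across every tested gene, was under 0.05 and it changed at least 2-fold. Read totals, recovered up to a common factor, ran from 49.3 M to 88.8 M (M, mega) per cell sample and from 52.0 M to 79.2 M per liver sample. Libraries of a group correlated at 0.99 or more in the cell table, while in the liver table replicate 2 of PHX-D3 stood apart, at 0.882 and 0.902 with the other replicates. The clone-1 line went against its label as 1 clone. Eif2s3y, a Y-linked gene, stood at 17.5 to 21.5 FPKM in IL6-iHPCs of clone-1 but was listed at 0 in all IL6-iMHs of clone-1, as were Ddx3y, Uty and Kdm5d. The cause was not tested. For the genes described here, the calls over the 4 lines under these limits are given with and without clone-1. Their medians and the shares of all genes are given with clone-1 only. So are the counts and leading genes of the other pathway genes. The same 4 Y-linked genes were also at 0.0157 FPKM or less in every sample of mouse-1 and mouse-2. Eif2s3y stood at 3.52 to 4.71 in hepatocytes and 35.6 to 38.7 at D3. The passaged lines and the hepatocytes thus differ in Y-linked expression too. The summed level of 6 hepatocyte markers was 73600 to 79500 FPKM in hepatocytes, 590 to 708 at D3 and 59300 to 80500 in IL6-iMHs, and that of 5 cholangiocyte or progenitor markers was 3.84 to 3.94 FPKM in hepatocytes and had medians from 2710 to 10500 in the passaged IL6-iHPCs. Kupffer cell markers summed to at most 19.5 FPKM in hepatocytes and at most 0.117 in the passaged lines. The sum of 8 stellate cell markers went the other way, from 2.11 to 2.21 FPKM in hepatocytes to 53.2 to 56.2 at D14, where 6 of the 8 were under 1 FPKM. It was 10.2 to 38.7 in passaged IL6-iHPCs and 1.77 to 15.9 in IL6-iMHs. The sum of 8 sinusoidal endothelial markers was 23.7 to 27.6 FPKM in hepatocytes and 1.05 to 1.42 at D14. The part of such cells in the levels below was not tested.

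**Figure D1:**
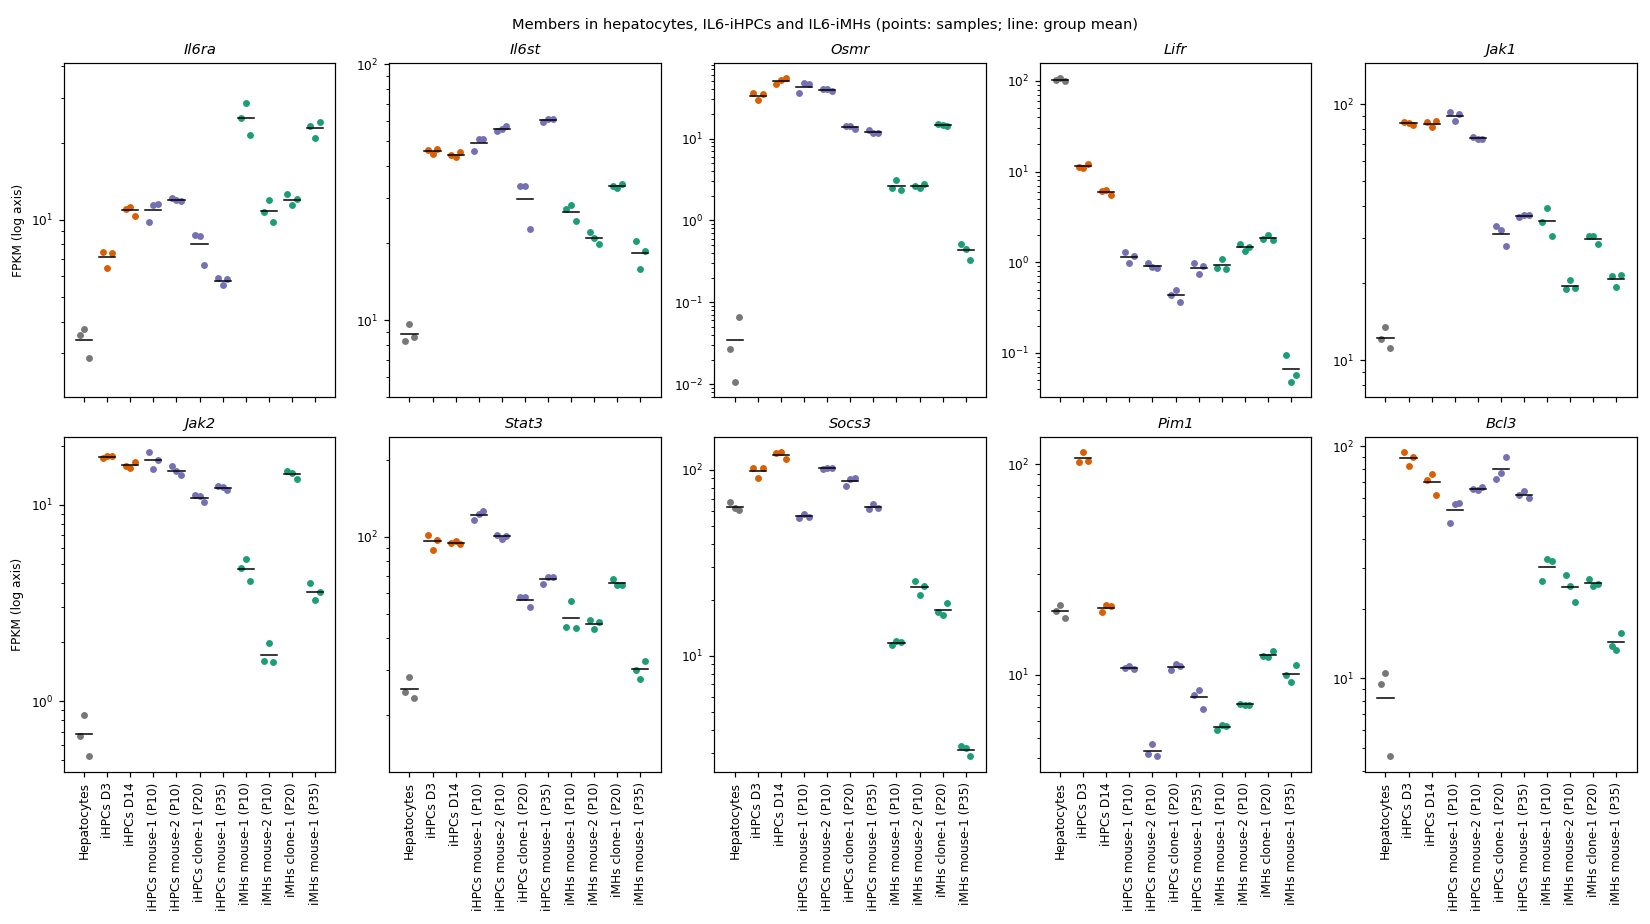
FPKM (log axis) of the 10 genes in the 11 groups of the cell table, 1 panel per gene, with a point for each of the 3 samples of a group and a line at the group mean. Hepatocytes hold the highest Lifr and the lowest Osmr and Jak2, and Socs3 is lower in all 12 samples of IL6-iMHs than in all other samples.

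After 3 days in culture with IL6, hepatocytes had more of the receptor subunits Il6st and Osmr, both kinases, Stat3, Pim1 and Bcl3, and less Lifr. Osmr went from 0.0344 ± 0.0281 to 33.4 ± 3.48 FPKM (SD, n = 3), Lifr from 103 ± 3.31 to 11.5 ± 0.543, and Stat3 from 25.4 ± 2.47 to 95.9 ± 6.70. Of the 10 genes, 7 rose and 1 fell at D3, where 66.0% of all genes tested passed the same limits, 53.9% higher and 12.1% lower. At D14 again 7 rose and 1 fell, against 62.9% of all genes. In the passaged lines 7 rose and 2 fell, against 59.4% of all genes, 48.1% higher and 11.3% lower. The median log2 fold change of the 10 genes was 2.31 at D3 and 2.03 at D14, and in the passaged lines 1.84, beside medians of 1.14, 1.0 and 0.94 over all genes tested. Much of the transcriptome thus stood higher than in hepatocytes on this scale, and quantile normalization, which removes such a shift, took the medians of all genes to 0.17, 0.16 and 0.18 and the split at D3 from 6641 higher and 1494 lower to 3336 and 2715. That split went from 6163 and 1595 to 3258 and 2739 at D14, and for the passaged lines from 5931 and 1392 to 2970 and 2318. The comparisons share the 3 hepatocyte samples, and in RNA from many cells fewer cells of a type and less RNA per cell cannot be told apart.

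Il6ra, the subunit that binds IL6, stood at 3.53, 3.72 and 2.88 FPKM in the 3 hepatocyte samples, 7.51, 6.50 and 7.39 at D3 and 11, 11.2 and 10.3 at D14. All culture samples lay above all hepatocyte samples, but only the difference at D14 passed the limits (1.44 ± 0.10, adjusted p = 1.37e-14), that at D3 being 0.90. After quantile normalization the values were -0.61 at D3, 0.15 at D14 and -0.03 in the passaged lines, so the direction for Il6ra depends on the scaling. Il6st, the shared signalling subunit, stood at 8.26, 9.68 and 8.61 FPKM in hepatocytes, 46.3, 44.6 and 46.6 at D3 and 44.1, 43.3 and 45.5 at D14. It rose at both times (2.25 ± 0.10, adjusted p = 1.43e-19 at D3) and kept its sign after quantile normalization (1.48). Osmr, through which oncostatin M signals, was barely read in hepatocytes, at 0.0272, 0.0106 and 0.0655 FPKM, and stood at 35.7, 29.4 and 35 at D3 and 46.4, 51.9 and 54.5 at D14. This was the largest rise among the 10 genes (5.05 ± 0.09, adjusted p = 8.07e-29 at D3). Lifr, through which leukemia inhibitory factor signals, went the other way, from 101, 107 and 101 FPKM in hepatocytes to 11.3, 11.1 and 12.1 at D3 and 6.04, 6.18 and 5.52 at D14. The fall was -3.06 ± 0.06, adjusted p = 6.14e-27 at D3 and -3.91 ± 0.06, adjusted p = 1.43e-29 at D14.

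Both kinases rose. Jak1 stood at 12.1, 13.5 and 11.1 FPKM in hepatocytes and 85.4, 84.7 and 82.9 at D3 (2.69 ± 0.07, adjusted p = 2.36e-24), and D14 overlapped D3 at 84.8, 81.5 and 85.7. Jak2 stood far lower, at 0.667, 0.847 and 0.523 FPKM in hepatocytes, and reached 17.3, 17.8 and 17.7 at D3 (3.47 ± 0.08, adjusted p = 7.62e-26). Stat3 stood at 24.6, 28.2 and 23.5 FPKM in hepatocytes, 102, 88.6 and 97.4 at D3 and 94.5, 96 and 93.5 at D14. No sample of culture overlapped the hepatocytes, and Stat3 rose by nearly the same amount at D3 (1.88 ± 0.08, adjusted p = 3.95e-20) and D14 (1.86). After quantile normalization Jak1, Jak2 and Stat3 kept their sign, at 2.27, 2.14 and 1.77 at D3.

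The feedback and target genes did not move as a block. Socs3 was already at 67, 62.1 and 61 FPKM in hepatocytes, as isolated, and stood at 102, 90.9 and 103 at D3 and 124, 124 and 114 at D14. Each culture sample lay above each hepatocyte sample, yet the differences of 0.63 and 0.92 were under 2-fold. After quantile normalization that at D14 passed (1.25, adjusted p = 4.41e-16). Pim1 was high at D3 alone, at 103, 114 and 104 FPKM, against 20, 21.4 and 18.6 in hepatocytes (2.36 ± 0.07, adjusted p = 1.25e-23), and was back at 19.8, 21.5 and 21.1 at D14. Between D3 and D14 Pim1 was the 1 gene of the 10 that passed the limits (-2.31 ± 0.07, adjusted p = 5.31e-22), where 10.2% of all genes did. Bcl3 stood at 9.45, 10.6 and 4.62 FPKM in hepatocytes, with 1 sample well below the others, and at 94.2, 82.5 and 90.4 at D3 (3.35 ± 0.16, adjusted p = 1.58e-18) and 72, 76.2 and 62 at D14 (3.01). The counting did not use strand, and antisense transcripts overlap 14.5% of the exonic bases of Pim1 and 6.51% of those of Bcl3, so reads of the pairs cannot be told apart.

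In the 4 passaged lines Il6ra, Il6st, Osmr, both kinases and Stat3 stayed above hepatocytes, but at levels that differed between lines. Osmr stood at 35.7 to 47.9 FPKM in the P10 lines of both mice and at 11.6 to 14.3 in clone-1 and in mouse-1 at P35, without overlap. Jak1 split the lines in the same way, at 72.9 to 92.9 FPKM in the P10 lines and 27.9 to 37 in the later ones, as did Stat3, at 98.1 to 126 and 53.2 to 69.4. Passage and line differ together across these 4, other than within mouse-1. Over the mean of the 4 lines against hepatocytes, Osmr rose by 4.55 ± 0.07, adjusted p = 1.65e-30, Jak2 by 3.12 ± 0.06, adjusted p = 2.2e-27, Bcl3 by 2.90 ± 0.12, adjusted p = 1.6e-19, Il6st by 2.29, Jak1 by 2.02, Stat3 by 1.67 and Il6ra by 1.17. Lifr was down to 0.367 to 1.29 FPKM over all 12 samples, from over 100 in each hepatocyte sample (-5.83 ± 0.05, adjusted p = 1.33e-36). Pim1 fell too (-1.22 ± 0.05, adjusted p = 4.32e-19), with 4.09 to 11.3 FPKM in the lines, all under the hepatocytes. Socs3 lay on both sides of the hepatocytes, at 55, 57.9 and 55.4 FPKM in mouse-1 (P10) and 101, 102 and 102 in mouse-2 (P10). Without clone-1 the same genes passed, with Osmr at 4.78, Jak2 at 3.21 and Stat3 at 1.85. With each line's mean taken as 1 sample, against a single hepatocyte mean, the calls of Il6ra (adjusted p = 0.11) and Pim1 (adjusted p = 0.092) were lost. The spread there comes from the lines alone, 2 of which are 1 mouse, and the lone hepatocyte mean is assumed to vary like them.

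Within mouse-1, further passages went with lower Osmr and Jak1. Osmr stood at 35.7, 47.9 and 45.8 FPKM at P10 and 12.7, 11.6 and 11.7 at P35 (-1.75 ± 0.09, adjusted p = 4.96e-17), and Jak1 at 92.9, 85.9 and 91.6 and 36.3, 36.8 and 37 (-1.27 ± 0.07, adjusted p = 8.14e-16). These were the 2 genes of the 10 that passed the limits, against 33.7% of all genes tested. Stat3 (-0.83) and Il6ra (-0.81) were lower by less than 2-fold, and after quantile normalization, which moved the split over all genes from 3058 higher and 1102 lower to 1770 and 1676, both passed as well, at -1.41 and -1.24. Il6st, at 59.6, 60.9 and 61.1 FPKM at P35, lay above all P10 samples by a difference of 0.29, which became -0.20 after quantile normalization. The neutrophil marker sum was 86.6 to 92.6 FPKM at P35 and at most 0.138 at P10, most of it S100a8, and Retnlg was listed at 0 in both. That sum was also 28 to 36.6 FPKM in IL6-iHPCs of clone-1 (P20), and 1.12 to 2.09 in IL6-iMHs of mouse-1 (P35).

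Maturation, with IL6, EGF and HGF taken away and oncostatin M given, went with lower Socs3 in every line. It also went with lower Osmr in 3 of the 4 lines. Averaged over lines, 5 of the 10 genes fell from IL6-iHPCs to IL6-iMHs and 0 rose by limma with Benjamini-Hochberg adjustment (all 10 were under an unadjusted p of 0.05, and Il6ra, Lifr and Pim1 among them were higher), against 28.1% of all genes tested, 6.68% higher and 21.4% lower. The median of the 10 genes was -0.98 and that of all genes -0.41 (-0.08 after quantile normalization, which moved the split over all genes from 823 higher and 2636 lower to 1188 and 1100). Socs3 fell by 2.62 ± 0.03, adjusted p = 2.02e-32, Osmr by 2.55 ± 0.04, adjusted p = 1.15e-28, Bcl3 by 1.45 ± 0.08, adjusted p = 7.01e-17, Jak2 by 1.34 ± 0.04, adjusted p = 5.64e-23, and Jak1 by 1.02 ± 0.04, adjusted p = 3.03e-21. With each line's mean as 1 sample, Socs3 and Bcl3 still passed (adjusted p = 0.0352 for each) and Osmr (0.0541), Jak1 (0.0772) and Jak2 (0.101) did not. Without clone-1 the same 5 genes fell, Osmr by 3.42 and Jak2 by 1.91, and Il6st (-1.31) and Stat3 (-1.20) fell as well. After quantile normalization 3 genes were lower and 1 higher, since Jak1 (-0.87) and Jak2 (-0.83) fell short of 2-fold and Il6ra passed as a rise (1.23).

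**Figure D2:**
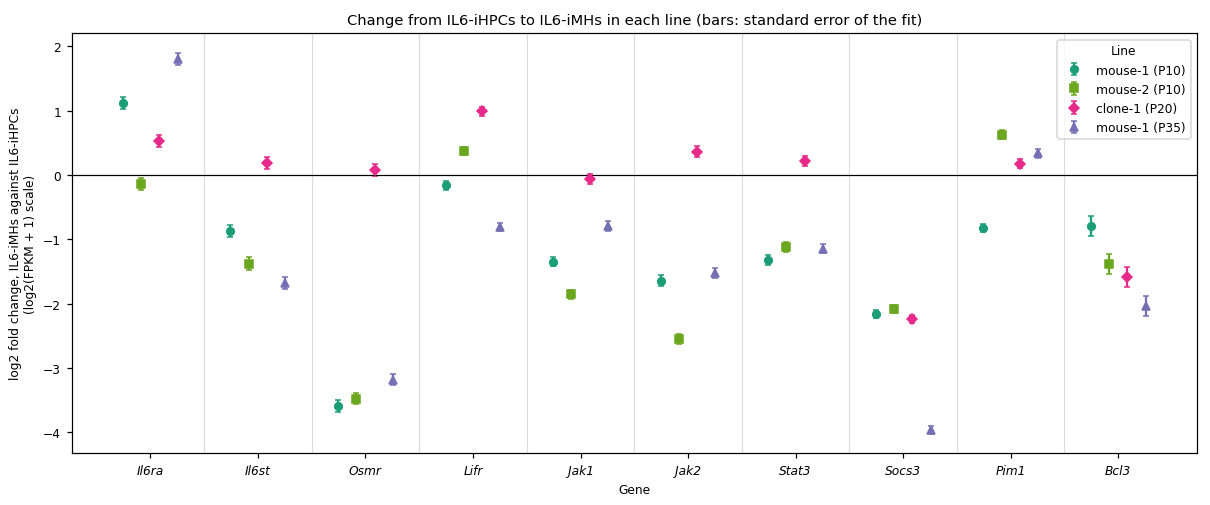
Log2 fold change of IL6-iMHs against IL6-iHPCs (log2(FPKM + 1) scale) for each of the 10 genes in each of the 4 lines, with bars for the standard error of the fit. Socs3 and Bcl3 lie under 0 in all 4 lines, whereas Osmr, Jak2, Il6st and Stat3 lie under 0 in 3 lines and at 0.07 to 0.36 in clone-1.

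Line by line, the number of genes that rose and fell was 1 and 5 in mouse-1 (P10), 0 and 7 in mouse-2 (P10), 0 and 2 in clone-1 (P20) and 1 and 6 in mouse-1 (P35), where 25.0%, 39.9%, 23.6% and 45.3% of all genes passed the same limits of limma. At an unadjusted p under 0.05 and without the fold limit, 2 genes were higher in mouse-2 (P10) and 5 in clone-1. After quantile normalization the counts were 1 and 5, 2 and 7, 1 and 2, and 2 and 4 in the same order of lines. In that order 2784, 3969, 2160 and 3980 of all 12328 genes tested then passed in either direction. Socs3 stood at 11.4, 12.1 and 11.9 FPKM in IL6-iMHs of mouse-1 (P10), 25.1, 21.1 and 23.8 of mouse-2 (P10) and 17.3, 16.6 and 19.1 of clone-1. It was lowest in mouse-1 (P35), at 3.26, 3.19 and 2.87 FPKM against 61.5, 65.6 and 62.2 before maturation (-3.96 ± 0.06, adjusted p = 3.78e-29). The falls in the other lines were alike in size, at -2.16, -2.09 and -2.25. All 12 IL6-iMH samples lay below all 21 other samples of the cell table for Socs3.

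Osmr fell in both P10 lines and in mouse-1 (P35), to 2.51, 3.10 and 2.32 FPKM in mouse-1 (P10), 2.62, 2.47 and 2.79 in mouse-2 (P10) and 0.519, 0.447 and 0.329 in mouse-1 (P35). In clone-1 it stood at 15, 14.8 and 14.3 FPKM, against 14.2, 14.3 and 13.2 in the IL6-iHPCs of that name (0.07 ± 0.09, adjusted p = 0.448). Jak2 showed the same division, at 1.61, 1.97 and 1.58 FPKM in IL6-iMHs of mouse-2 (P10), where it fell most (-2.55 ± 0.08, adjusted p = 1.12e-21), and 14.9, 14.5 and 13.5 in clone-1 (0.36). Stat3 fell in the same 3 lines, by 1.32, 1.12 and 1.15, and differed by 0.22 in clone-1, where IL6-iMHs held 68.2, 64.6 and 64.7 FPKM. Il6st ranged over 15.9 to 28.1 FPKM in the IL6-iMHs of these 3 lines, with falls past the limits in mouse-2 (P10) (-1.38) and mouse-1 (P35) (-1.68), and over 32.9 to 33.9 in clone-1. After quantile normalization neither Stat3 (-0.82) nor Jak2 (-0.79) reached 2-fold in mouse-1 (P35). Jak1 fell in the P10 lines (-1.35 and -1.86), while the differences in mouse-1 (P35) (-0.80) and clone-1 (-0.06) missed the limits.

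Il6ra went the other way in mouse-1, past the limits, and in clone-1 by less than 2-fold. It stood at 24.9, 28.7 and 21.4 FPKM in IL6-iMHs of mouse-1 (P10) and 23.2, 20.9 and 24.1 in those of mouse-1 (P35), its 2 highest groups, whose samples overlap. Both were rises, of 1.12 ± 0.10, adjusted p = 1.35e-11 and 1.81 ± 0.10, adjusted p = 1.01e-16. In mouse-2 (P10) it overlapped the IL6-iHPCs (-0.14). In clone-1 all IL6-iMH samples lay above all IL6-iHPC samples, at 11.36 to 12.55 against 6.65 to 8.73 FPKM. That difference was under 2-fold (0.53, and 0.99 after quantile normalization). Bcl3 fell in every line other than mouse-1 (P10), most in mouse-1 (P35), where it went from 61.7, 64.1 and 60 FPKM to 13.8, 13.3 and 15.7 (-2.04 ± 0.16, adjusted p = 4.91e-13). Lifr and Pim1 missed the limits in each of the 4 lines, with differences from -0.81 to 0.99 for Lifr and from -0.83 to 0.63 for Pim1. After quantile normalization Lifr passed as higher in mouse-2 (P10) (1.06) and clone-1 (1.10), and Pim1 in mouse-2 (P10) (1.31) and, at the 2-fold limit, in mouse-1 (P35). An F test of the 3 differences between the 4 lines, with a range of at least 2-fold, called all 10 genes, but also 65.2% of all genes tested. After quantile normalization it called 9 of the 10, the range of Bcl3 being 0.69. The share of all genes was not taken for that setting, so this count has no background to be read against.

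Against hepatocytes, IL6-iMHs had more of most receptor and kinase transcripts, less Socs3 and Pim1, and almost no Lifr. Over the 4 lines 6 genes were higher and 3 lower, where 32.6% of all genes passed the limits and quantile normalization moved the split over all genes from 3060 higher and 960 lower to 1686 and 1325. Lifr stood at 0.0476 to 1.99 FPKM in the 12 samples (-5.74 ± 0.05, adjusted p = 3.06e-36). With the 4 line means set against the single hepatocyte mean, a test whose spread comes from the lines alone, Lifr passed (adjusted p = 0.000165) and the other 8 calls were lost, with adjusted p from 0.0534 for Il6ra to 0.325 for Jak1. Socs3 (-2.37) and Pim1 (-1.14) were lower, and Il6ra (2.00), Osmr (2.00), Jak2 (1.78), Bcl3 (1.44), Il6st (1.35) and Jak1 (1.0) higher. Jak1 lay at the 2-fold limit and dropped out without clone-1 (0.93), while the other calls held. After quantile normalization Il6st (0.76), Jak1 (0.51) and Bcl3 (0.81) did not reach 2-fold. Stat3 did not pass (0.82), and mouse-1 (P35), at 30.1, 27.9 and 32.8 FPKM, overlapped the hepatocytes.

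In liver after PHX, the genes moved within 6 h. Socs3, Stat3, Il6ra, Osmr and Bcl3 rose, Lifr fell, and the kinases and Pim1 did not pass the limits. That is 5 genes higher and 1 lower of the 10, where 16.3% of all genes passed, 4.78% higher and 11.5% lower. At PHX-24h 6 were higher and 1 lower (7.90% of all genes), at PHX-D3 4 higher (5.82%), at PHX-D7 2 higher (8.84%) and at PHX-D14 1 higher and 1 lower (2.98%). The median log2 fold change of the 10 genes ran 1.15, 1.12, 0.72, 0.58 and 0.17 over the 5 times, and that of all genes tested was -0.28 at 6 h (-0.04 after quantile normalization, which moved the split over all genes from 531 higher and 1279 lower to 758 and 693). At PHX-D7 that split went from 868 and 114 to 579 and 206, at PHX-D14 from 109 and 222 to 127 and 136, and between 6 h and 24 h from 577 and 170 to 280 and 254. The 5 comparisons share the 3 samples of normal liver.

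**Figure D3:**
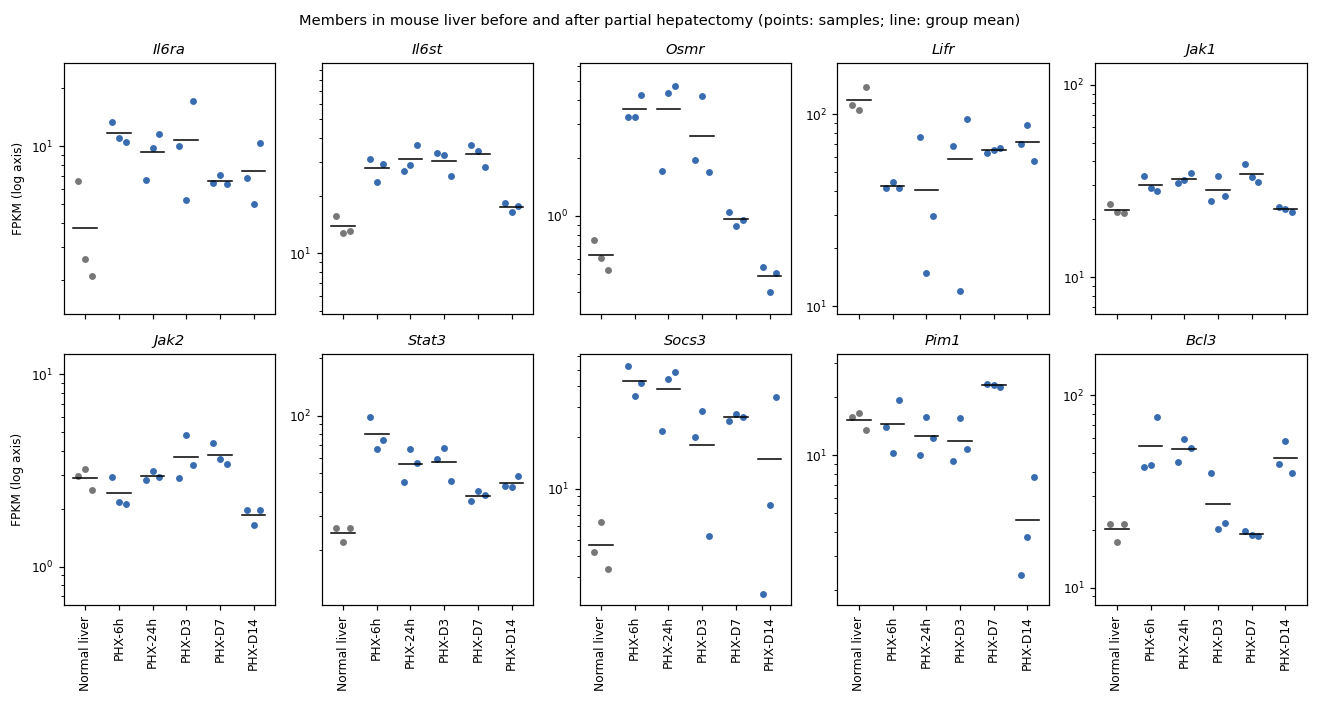
FPKM (log axis) of the 10 genes in normal liver and at 5 times after PHX, 1 panel per gene, with a point for each of the 3 samples of a group and a line at the group mean. Socs3, Stat3, Osmr and Il6st lie above all samples of normal liver at 6 h and 24 h, and Lifr lies below all of them from 6 h to 14 days.

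Socs3 stood at 4.26, 6.33 and 3.38 FPKM in normal liver, 53, 34.9 and 41.5 at 6 h and 21.9, 44.4 and 48.8 at 24 h. It rose at both times (2.98 ± 0.65, adjusted p = 0.00151 and 2.75 ± 0.65, adjusted p = 0.00527), with no overlap with normal liver. At D3 the samples spread, at 20.1, 28.6 and 5.29 FPKM (1.51 ± 0.65, adjusted p = 0.0918), and without the third of them the call was made (2.18, adjusted p = 0.0197). At D7 they lay close together at 25.1, 27.5 and 26.2 (2.30 ± 0.65, adjusted p = 0.0152), a call lost without replicate 3 of normal liver (adjusted p = 0.0548). At D14 they ran from below to far above normal liver, at 2.40, 8.02 and 34.5 FPKM (0.90 ± 0.65, adjusted p = 0.395).

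Stat3 stood at 26, 22 and 25.9 FPKM in normal liver and peaked at 6 h, at 97.9, 67.3 and 74.4 (1.64 ± 0.17, adjusted p = 4.29e-06). It was still higher at 24 h, at 45.3, 66.8 and 56.9 (1.15 ± 0.17, adjusted p = 0.000237), and at D3 (1.18 ± 0.17, adjusted p = 0.00032). At D7 and D14 every sample remained above every sample of normal liver, at 36, 40.4 and 38.7 and 43, 42.7 and 48.4 FPKM, but the differences of 0.62 and 0.84 were under 2-fold. Bcl3 stood at 21.6, 17.3 and 21.4 FPKM in normal liver, 42.4, 43.6 and 76.8 at 6 h (1.34 ± 0.25, adjusted p = 0.000391) and 45.3, 59.5 and 53.2 at 24 h (1.34). It overlapped normal liver at D3 and D7, and rose again at D14, at 43.7, 57.9 and 39.6 (1.18 ± 0.25, adjusted p = 0.00424). Pim1 did not follow Socs3. It overlapped normal liver from 6 h to D3, stood above it at 23.5, 23.1 and 22.5 FPKM at D7 without passing the limits (0.56), and fell at D14, to 2.37, 3.77 and 7.74 from 15.8, 16.5 and 13.6 (-1.65 ± 0.29, adjusted p = 0.00134).

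Among the receptors, Osmr stood at 0.750, 0.603 and 0.521 FPKM in normal liver and 3.27, 3.28 and 4.24 at 6 h (1.5 ± 0.25, adjusted p = 0.000199). It was 1.71, 4.33 and 4.75 at 24 h (1.43) and 1.95, 4.21 and 1.68 at D3 (1.09 ± 0.25, adjusted p = 0.00584), where the call rested on replicate 2 (0.79 without it) and was lost after quantile normalization (0.95), and by D14 it overlapped normal liver. Il6st stood at 15.7, 12.8 and 13 FPKM in normal liver and 31, 23.4 and 29.1 at 6 h, just short of 2-fold (0.95 ± 0.15, adjusted p = 0.000128), and rose at 24 h (1.09), D3 (1.07) and D7 (1.19 ± 0.15, adjusted p = 2.61e-05), when it was 36.7, 34.1 and 28.1. Without replicate 3 of PHX-24h its difference there was 0.97, and without replicate 1 of normal liver or replicate 2 of PHX-6h it passed at 6 h too (1.04 and 1.07). After quantile normalization it passed at 6 h (1.16) and came just under 2-fold at D7. At D14 it still lay above every sample of normal liver, at 18.4, 16.4 and 17.7, without passing the limits. Il6ra stood at 6.55, 2.59 and 2.11 FPKM in normal liver, where 1 sample lay well above the others, and at 13.3, 11.1 and 10.5 at 6 h (1.52 ± 0.36, adjusted p = 0.00265). Its calls at 24 h (1.21 ± 0.36, adjusted p = 0.0186) and D3 (1.3 ± 0.36, adjusted p = 0.0155) each rested on single samples. At 24 h they were lost without replicate 2 (adjusted p = 0.0664) or 3 (0.0925) of normal liver or replicate 2 (0.0564) or 3 (0.0777) of PHX-24h, and at D3 without replicate 2 (0.0639) or 3 (0.0769) of normal liver or replicate 3 of PHX-D3 (0.0578). Without replicate 1 of normal liver, the high one, Il6ra also passed at D7 (1.19) and D14 (1.28).

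Lifr, the receptor subunit most abundant in normal liver among these genes, stood there at 112, 105 and 139 FPKM and at 41.4, 44.4 and 41.3 at 6 h. The groups did not overlap, but the fall (-1.45 ± 0.58, adjusted p = 0.0465) was lost without any 1 of these 6 samples, with adjusted p from 0.0754 to 0.119, and after quantile normalization (-1.22, adjusted p = 0.107). At 24 h the samples spread widely, at 76, 14.9 and 29.6 FPKM (-1.83 ± 0.58, adjusted p = 0.0253), and the call was lost without replicate 1 (adjusted p = 0.0538) or 3 (0.0817) of normal liver or replicate 2 (0.129) or 3 (0.0734) of PHX-24h. At D3 they stood at 68.2, 12.1 and 94.1 (-1.43 ± 0.58, adjusted p = 0.0761), with the lowest in the library that stood apart, and without replicate 3 of PHX-D3 the difference passed (-1.98, adjusted p = 0.0194). The later values of 62.6, 65.1 and 66.2 at D7 and 70.3, 87.8 and 57.2 at D14 were all below normal liver without passing the limits. Jak1 stood at 24, 21.8 and 21.5 FPKM in normal liver and 33.4, 28.9 and 27.9 at 6 h (0.41), and Jak2 at 2.95, 3.23 and 2.51 and 2.91, 2.18 and 2.12 (-0.20). Neither kinase passed the limits of limma at any time, although at an unadjusted p under 0.05 Jak1 was higher at 6 h, 24 h, D3 and D7 and Jak2 lower at D14.

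Between PHX-6h and PHX-24h, 0 of the 10 genes passed the limits of limma with Benjamini-Hochberg adjustment, against 6.72% of all genes, and 1, Stat3, had an unadjusted p under 0.05 (-0.50 ± 0.17, adjusted p = 0.0322), with voom on recovered reads also calling 0. Markers of other cells moved as well. The sum of 5 neutrophil markers ran from 1.59 to 7.09 FPKM in normal liver, 43.2 to 44.4 at 6 h, 9.36 to 82.9 at 24 h and 59.7 to 121 at D7, and that of 8 Kupffer cell markers from 206 to 329 in normal liver, 79.5 to 159 at 6 h and 1170 to 1700 at D7. In each of the 6 groups no Kupffer cell marker was listed at 0. The hepatocyte marker sum had medians of 53000 FPKM in normal liver, 47600 at 6 h and 33000 at 24 h. The part of these cells in the levels above was not tested.

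**Figure D4:**
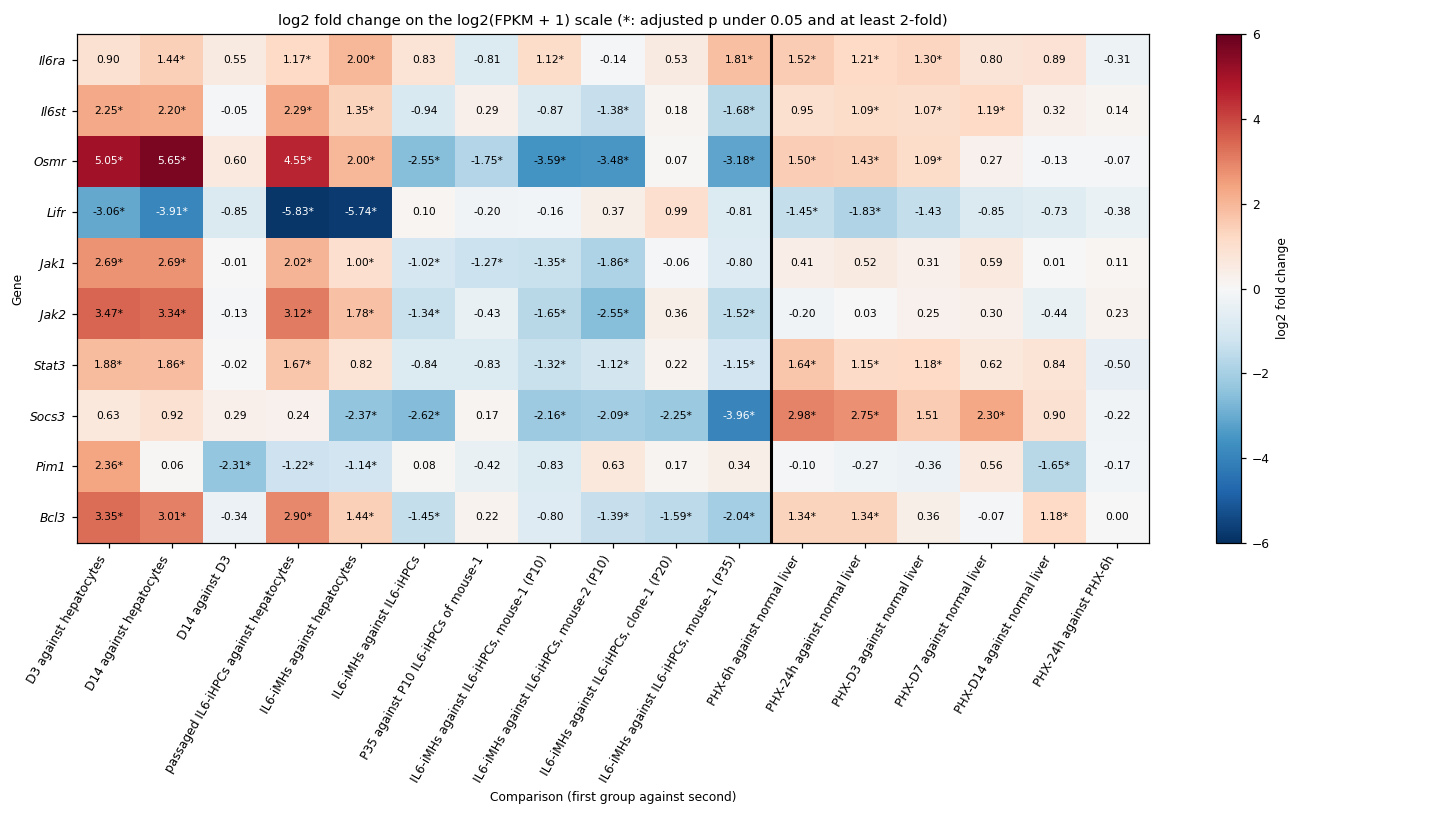
Log2 fold change (log2(FPKM + 1) scale) of the 10 genes, in rows, in the 17 comparisons, in columns, with an asterisk where the adjusted p was under 0.05 and the change at least 2-fold. Osmr and the kinases are higher in culture than in hepatocytes, Lifr is lower, and Socs3 is higher in liver at 6 h and 24 h after PHX and lower in IL6-iMHs.

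Side by side, culture and liver differed gene by gene. Osmr rose in both, by 5.05 at D3 of culture and 1.5 at 6 h after PHX, as did Stat3 (1.88 and 1.64) and Bcl3 (3.35 and 1.34). Lifr fell in both (-3.06 and -1.45), but its call in liver was lost without any 1 of the samples compared. Socs3 had 0.63 in culture and 2.98 in liver, where the starting levels also differed, with 63.4 ± 3.19 FPKM (SD, n = 3) in isolated hepatocytes and 4.66 ± 1.51 (SD, n = 3) in normal liver. Jak2 had 3.47 and -0.20, and Pim1 2.36 and -0.10. The tables were made separately and the differences between them were not tested.

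Il6 and Osm were read at low levels. Il6 was at most 0.17 FPKM in any cell group and at most 0.312 in liver, and Osm was listed at 0 in all cultures, stood at 0.0744 to 0.257 in hepatocytes and reached 0.76 to 0.975 at PHX-D7. Clcf1, a cytokine that signals through gp130 and LIFR, stood at 0.0993 FPKM in hepatocytes, 26.8 at D3 and 71.2 at D14, and fell with maturation (-2.41 ± 0.04, adjusted p = 2.28e-28). Lif stood at 5.82 FPKM at D3 and 8.39 at D14. The cytokines added to the media are not seen in these values.

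A list of 83 other genes of the pathway (ligands, receptors, kinases, STAT factors, inhibitors, shedding enzymes and STAT3 targets) was read beside the 10. In culture, 48 of the 73 tested rose and 10 fell at D3 (median 1.57), 43 and 10 at D14 (1.36), and again 43 and 10 over the passaged lines (1.27). Over all genes tested 53.9% rose and 12.1% fell at D3 (median 1.14), and 48.1% and 11.3% over the passaged lines (0.94), while at D14 62.9% passed in either direction (1.0). Of 15 inhibitors and phosphatases, 11 rose and 1 fell at D3, and of 17 nuclear STAT3 targets, 14 rose and 1 fell. The 18 secreted STAT3 targets, mostly acute-phase proteins, divided into 5 that rose and 5 that fell. The largest rises at D3 were those of Lcn2, which encodes lipocalin 2, from 2.88 to 1955 FPKM (8.97 ± 0.10, adjusted p = 9.1e-34) and Ier3, an early response gene (7.30). The largest falls were those of Hamp, which encodes the iron hormone hepcidin, from 1108 to 12.4 FPKM (-6.39 ± 0.18, adjusted p = 4.54e-24) and Itih3 (-5.44), an inter-alpha-trypsin inhibitor chain. At D14 Lcn2 (8.69), Ier3 (7.17), Hamp (-9.15) and Orm1 (-3.91) led, and in the passaged lines Lcn2 (9.80), Ier3 (6.95), Hamp (-8.55) and Itih4 (-5.33). From D3 to D14, where 10.2% of all genes passed in either direction, 11 of the 73 rose and 10 fell. A2m (5.97), Itih3 (4.80), Saa3 (-3.03) and Orm1 (-2.79) led.

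With maturation 6 of the 73 rose and 23 fell (median -0.48), with 7 of the 15 inhibitors and phosphatases among the latter, beside 6.68% higher and 21.4% lower over all genes tested (median -0.41). Itih4 (3.31) and Itih3 (2.60) had the largest rises in the mean of the log2 values over lines, though Itih3 went up in clone-1 and mouse-1 (P35) alone, was lower in mouse-1 (P10) (-1.33) and had a lower mean FPKM in IL6-iMHs (492.9) than in IL6-iHPCs (558.5). Hif1a, the oxygen-sensing transcription factor, and Clcf1 fell most (-3.13 and -2.41). Line by line 2 rose and 25 fell in mouse-1 (P10), 8 and 23 in mouse-2 (P10), 5 and 18 in clone-1 and 13 and 26 in mouse-1 (P35), where 25.0%, 39.9%, 23.6% and 45.3% of all genes passed in either direction. The leading genes were Ctf1 (1.69), Ptpn6 (1.20), Saa3 (-5.02) and Hif1a (-3.55) in mouse-1 (P10), and Itih4 (3.09), Saa1 (2.49), Hif1a (-3.26) and Lepr (-3.18) in mouse-2 (P10). In clone-1 they were Itih3 (5.65), Itih4 (5.65), Birc5 (-3.85) and Saa3 (-3.17), and in mouse-1 (P35) Itih3 (6.82), Hp (4.42), Birc5 (-5.01) and Timp1 (-3.67). IL6-iMHs against hepatocytes had 33 higher and 9 lower (32.6% of all genes passed), led by Lcn2 (10.27), Ier3 (6.24), Hamp (-8.93) and Cish (-3.18), an inhibitor of the Socs family. At P35 against P10, 11 rose and 20 fell (33.7% of all genes passed), and of the 18 secreted targets 1 rose and 14 fell. Birc5 (4.63) and Socs1 (2.46) rose most and Itih3 (-9.02) and Serpina3n (-7.11) fell most.

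In liver at 6 h after PHX, 30 of the 75 pathway genes tested rose and 11 fell (median 0.39), against 4.78% and 11.5% of all genes (median -0.28), and 16 of the 17 secreted targets were among those that rose. Lcn2 went from 5.34 to 3173 FPKM (9.01 ± 0.71, adjusted p = 5.58e-07) and Saa2, a serum amyloid, from 43.4 to 8486 (7.79 ± 0.69, adjusted p = 1.51e-06). Of the genes whose promoter windows are printed above, Itih4 (1.83 ± 0.23, adjusted p = 1.99e-05), Fgb (1.81) and Fga (1.76) rose, and Irf1 fell (-1.81 ± 0.25, adjusted p = 4.41e-05), as did Stat6 (-1.3). Neutrophil markers rose with these genes, as given above, and the part of such cells in them was not tested. Over all genes 7.90% passed in either direction at 24 h, 5.82% at D3, 8.84% at D7 and 2.98% at D14. At 24 h 24 pathway genes rose and 0 fell by limma (11 were lower at an unadjusted p under 0.05), 16 of the 17 secreted targets among the risers, again led by Lcn2 (9.34) and Saa2 (8.36). At D3 17 rose and 1 fell, namely Il11ra1 (-1.0), while Lcn2 (7.98) and Saa2 (6.49) still led. At D7 22 rose and 1 fell, led by Fos (6.12) and Lcn2 (5.54), with Bcl6 lower (-1.76), and at D14 6 rose and 0 fell (9 lower at an unadjusted p under 0.05), led by Myc (3.36) and Fos (3.17). Between 6 h and 24 h, where 6.72% of all genes passed, 4 rose and 2 fell, among them Saa3 (2.34), Irf1 (1.21), Bcl2l1 (-1.56) and Cebpd (-1.05).

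The genes whose group means followed Socs3, Stat3 and Osmr most closely were sought by Pearson's r over the 11 groups of the cell table and the 6 groups of the liver table, as a description without a test, since the genes were picked for their r and groups of the cell table share lines. In the cell table they were Rabl3 (0.932), Rint1 (0.904), Tatdn3 (0.888), Ablim1 (0.872) and Socs2 (0.871) for Socs3. For Stat3 they were Osmr (0.975), Etv6 (0.972), Rccd1 (0.957), Ubr2 (0.956) and Spty2d1 (0.955), and for Osmr Reep3 (0.976), Stat3 (0.975), Plekhm1 (0.969), Ncoa2 (0.968) and Ibtk (0.967). In the liver table Golph3 (0.985), Zc3h12a (0.984), Tnfrsf1a (0.979), Acvr1b (0.975) and Lamtor3 (0.974) came closest to Socs3. There 1810055G02Rik (0.998), Chd1 (0.997), Tubb6 (0.991), Mon2 (0.99) and Map3k14 (0.989) came closest to Stat3, and Nceh1 (0.999), Dopey1 (0.998), Ddx39 (0.998), Dis3 (0.997) and Usp37 (0.997) to Osmr. With 6 groups, such values of r rest on few points.

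In genomic position (mm10, GENCODE vM21), the genes lie on 8 chromosomes. Osmr (chr15:6813577-6874969, minus strand) and Lifr (chr15:7090614-7197489, plus strand) lie near each other on chromosome 15. They moved in opposite directions in culture and, with the limit on Lifr given above, at 6 h after PHX. Stat3 (chr11:100885098-100939540, minus strand) and Socs3 (chr11:117966079-117970047, minus strand) lie on chromosome 11, far apart. The RefSeq promoter of Socs3 printed above lies inside this GENCODE span, so the RefSeq start used there differs from the outermost GENCODE start. The other receptor subunits are Il6ra (chr3:89864059-89913196, minus strand) and Il6st (chr13:112464070-112510086, plus strand). The kinases are Jak1 (chr4:101152367-101265282, minus strand) and Jak2 (chr19:29251828-29313080, plus strand). Pim1 lies at chr17:29490753-29496112 on the plus strand and Bcl3 at chr7:19808462-19822770 on the minus strand. FPKM counts reads over the exons of a gene, so these values do not tell its isoforms apart.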

How the data were processed

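Polyadenylated mRNA was sequenced by the authors in 60 samples in 20 groups of 3, of which the 33 of the cell table and the 18 of the liver table were analysed. The authors deposited a single value for each gene symbol in each sample, and the unit was not given in the sources used here. The deposited values were taken as FPKM. They are not whole numbers, whole reads could be recovered from them in each gene, and the submitters named Cufflinks. In FPKM, a few abundant transcripts lower the values of all other genes. The submitters' processing notes name TopHat 1.4.1, Cufflinks 1.3.0 and mm10, and the library kit described does not keep strand. Symbols listed more than once (2 in each table) were averaged. Whole reads were recovered for all 18826 and 17327 genes with a value above 0, within 0.1 of a whole read and up to a common factor, and gave the depths. These cover counting error only.

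Genes that reached 1 FPKM in 3 or more samples were fitted as log2(FPKM + 1) with limma 3.58.1 (trend) in R 4.3.3, all groups of a table in 1 fit, two-sided, with p-values adjusted by Benjamini-Hochberg across every tested gene, in 17 comparisons. Steps were tested on simulated data. The 10 genes and all lists were chosen with earlier results of these data known. Every gene of the 10 is shown in every group in the figures, and the text gives levels for a part of the groups. Other pathway genes were named where they were among the 2 largest rises or 2 largest falls of a comparison, promoter windows aside, which were chosen after their values were seen, as were the ligands given. The 5 nearest patterns were named for Socs3, Stat3 and Osmr. Other settings tried were quantile normalization, a pseudocount of 0.1, a filter at 5 FPKM, no filter, voom on recovered reads, no fold threshold, only the groups compared, line means as samples, a replicate block and leaving out each library. Leaving out the clone-1 line was added after seeing the data. A table of 9 day 7 samples was not analysed here, and the fits planned for it were not run. Promoters are those of RefSeq, and 1 promoter window is not reported here. Python 3.11.15, pandas 2.3.3, NumPy 2.4.6 and matplotlib 3.10.9 were also used.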

Additional observations from a re-analysis of the deposited data

Results flagged for a closer look

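The change from IL6-iHPCs to IL6-iMHs differed between the 4 lines for all 10 genes, by an F test in limma of the 3 differences between lines with Benjamini-Hochberg adjustment and a range of at least 2-fold, which 65.2% of all genes tested also passed. The range between the highest and the lowest line was widest for Osmr, at 3.67 on the log2 scale, and for Jak2, at 2.92, with clone-1 (P20) the highest line for both. For Il6ra it was 1.95, with mouse-1 (P35) the highest, for Socs3 1.88, with mouse-1 (P35) the lowest, and for Il6st 1.86. Lifr and Jak1 each had a range of 1.80, Stat3 of 1.55 and Pim1 of 1.45. Bcl3 had the smallest range, at 1.25, and 0.69 after quantile normalization. The 3 samples behind each mean are technical repeats, clone-1 holds libraries that differ in Y-linked expression, and 2 of the lines are 1 mouse at different passages, so the difference is between these cultures.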

How the results depend on the processing

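Over all comparisons and alternatives, 2788 values were recomputed, of which 2660 kept their side of the limits, 58 calls were lost, 69 were gained and 1 called value changed sign. Within these classes, 41 values had the other sign. The call that changed sign was that of Il6ra in passaged IL6-iHPCs against hepatocytes, at -0.03 after quantile normalization. Without a fold threshold the number of the 10 genes called became 5 for D14 against D3, 10 for IL6-iMHs against IL6-iHPCs, 9 for P35 against P10, 10 in mouse-1 (P10), 7 in clone-1, 4 at PHX-D7, 4 at PHX-D14 and 1 between PHX-24h and PHX-6h. Quantile normalization gave 4 for P35 against P10 and 1 at PHX-D7. With line means as samples, the count was 1 for IL6-iMHs against hepatocytes and 2 for IL6-iMHs against IL6-iHPCs, and with only the groups compared it was 2 at PHX-D3. With 1 library left out at a time, the count ran from 4 to 7 at PHX-24h, 3 to 5 at PHX-D3, 1 to 3 at PHX-D7, 2 to 3 at PHX-D14 and 2 to 3 in clone-1, and Jak1 in IL6-iMHs against hepatocytes, at the 2-fold limit, was lost without any of 8 libraries and in IL6-iMHs against IL6-iHPCs without replicate 3 of IL6-iMHs of mouse-1 (P10). A replicate block changed no call, with 8 genes called at D3 and 6 at PHX-6h. The numbers do not pair the samples, whose deviations correlated at a median of -0.0156 over same-numbered samples among the cells and -0.0551 among the livers. Over all genes, the counts were 1254 for D14 against D3, 7323 for passaged IL6-iHPCs against hepatocytes, 4020 for IL6-iMHs against hepatocytes, 3459 for IL6-iMHs against IL6-iHPCs, 4160 for P35 against P10, 2907 for clone-1 (P20), 3082 for mouse-1 (P10), 4915 for mouse-2 (P10), 5585 for mouse-1 (P35), 1810 for PHX-6h, 878 for PHX-24h, 647 for PHX-D3, 982 for PHX-D7, 331 for PHX-D14 and 747 for PHX-24h against PHX-6h. Without a fold threshold the counts that moved by more than 1.5 times were those of D14 against D3 (8793), passaged IL6-iHPCs against hepatocytes (11598), IL6-iMHs against hepatocytes (10832), IL6-iMHs against IL6-iHPCs (11301), P35 against P10 (10325), clone-1 (P20) (9900), mouse-1 (P10) (9812), mouse-2 (P10) (10437), mouse-1 (P35) (10670), PHX-6h (5838), PHX-24h (3690), PHX-D3 (3217), PHX-D7 (3262), PHX-D14 (1881) and PHX-24h against PHX-6h (4021). With a pseudocount of 0.1 the counts that moved by more than 1.5 times were those of D14 against D3 (2147), PHX-6h (2921), PHX-24h (1412), PHX-D3 (1069), PHX-D7 (1519), PHX-D14 (777) and PHX-24h against PHX-6h (1472). After quantile normalization the counts that moved by more than 1.5 times were those of IL6-iMHs against IL6-iHPCs (2288). With voom on recovered reads the counts that moved by more than 1.5 times were those of D14 against D3 (2363), IL6-iMHs against hepatocytes (6476), IL6-iMHs against IL6-iHPCs (5434), mouse-1 (P10) (4862), clone-1 (P20) (4362), PHX-6h (3025), PHX-24h (1389), PHX-D3 (1084), PHX-D7 (1559), PHX-D14 (756) and PHX-24h against PHX-6h (1518). With line means as samples the counts that moved by more than 1.5 times were those of IL6-iMHs against hepatocytes (1275) and IL6-iMHs against IL6-iHPCs (1981). With a filter at 5 FPKM the counts that moved by more than 1.5 times were those of PHX-D7 (625). With only the groups compared the counts that moved by more than 1.5 times were those of PHX-D3 (281).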
